A study of Mus musculus with 24 samples.

Results

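Phf6 and 9 genes that encode its partners in the nucleosome remodelling and deacetylase (NuRD) complex were followed across 3 sorted populations of mouse bone marrow. The 10 genes are Phf6, Chd3, Chd4, Hdac1, Hdac2, Rbbp4, Rbbp7, Mta1, Mta2 and Mbd3. They were chosen by name, and each matched 1 row of a count table of 27179 Entrez genes. All 10 were expressed well enough to be tested in every comparison.

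RNA came from populations named HSC (haematopoietic stem cells), MPP (multipotent progenitors) and HPC-1 (restricted progenitors), all sorted on cKIT, SCA1, CD150 and CD48 after depletion of lineage-positive cells. There were 8 mice, 1 with Phf6 deleted and 1 with Phf6 intact from each of 4 litters, and every mouse gave 1 library of each population, so each of the 6 groups held 4 libraries. Both groups carry the same strain label, Phf6lox/Y;Tie2-creTg/+, that is, a floxed Phf6 on the single X chromosome of a male and the Tie2-cre transgene. The groups differ in the label only by Phf6 status, so whether the control mice carried Cre cannot be read from it, and the mice's age is not given. Tie2-cre acts in endothelial and blood-forming cells from early in development, so the deletion is not limited to the adult or to the sorted cells. SMART-Seq was used for HSC and MPP, and a TruSeq Stranded kit for HPC-1, so the population and the kit cannot be told apart when HPC-1 levels are set beside the others.

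NuRD joins a chromatin remodelling motor to a histone deacetylase and works mostly to close chromatin and lower transcription. Its motor is CHD3 or CHD4, its deacetylases are HDAC1 and HDAC2, RBBP4 and RBBP7 hold histones, the MTA proteins are the scaffold, and MBD2 or MBD3 joins these parts. PHF6, a zinc finger protein often mutated in T-cell leukaemia, has been found bound to NuRD, in part through RBBP4. In blood stem cells the complex is known for its role in self-renewal and lineage choice, where factors such as Ikaros and GATA1 with FOG1 bring it to DNA.

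Libraries held between 9658167 and 27786830 counts. The library of deleted MPP from litter 3 stood apart: 9.34% of its counts lay in its 10 most abundant genes and 14710 genes were detected in it. Slamf1, which encodes CD150, ran from 52.0 to 86.5 CPM (counts brought to one library size) in control HSC and did not exceed 3.495 CPM in any MPP or HPC-1 library, and Cd48 was at 168 to 224 CPM in HPC-1 against at most 52.3 CPM elsewhere. Slamf1 in deleted HSC ran from 8.99 to 52.7 CPM, with a mean of 36.3 CPM against 67.3 CPM in controls (log2 difference -0.89, edgeR adjusted p = 0.998). Its groups overlapped only between 52.0 and 52.7 CPM. Of 7 HSC marker genes edgeR called 3 between MPP and HSC of control mice, beside 8.84% of all genes tested. Vwf was lower in MPP (-3.91 on the log2 scale) and 2 were higher. The means in control HSC and MPP were 287 and 641.5 CPM for Hlf and 92.05 and 162.6 CPM for Procr. Ly6a, which encodes the sort marker SCA1, was at 162 and 324 CPM. The summed level of the 7 HSC genes was 1436 to 1992 CPM in control HSC, 1635 to 2306 CPM in control MPP and 365 to 564 CPM in control HPC-1. The summed level of 12 neutrophil and monocyte genes was 530 to 6684 CPM in control HSC and 1192 to 9420 CPM in deleted HSC, 178 to 2538 and 1246 to 12240 CPM in control and deleted MPP, and 401 to 1280 and 373 to 2734 CPM in control and deleted HPC-1. The defining lymphocyte genes Cd8a and, outside HPC-1, Pax5 and Cd3e were at 0 in every library. B and plasma cell genes summed to 31.2 to 66.1 CPM over all HSC and MPP libraries. In HPC-1 they summed to 48.5 to 113 CPM in controls (median 73.2) and 47.8 to 171 CPM after deletion (median 114). T and NK cell genes summed to 1.80 to 24.2 CPM over the 24 libraries. The part of other cells in the results below was not tested. In sorted bulk samples, fewer cells of one kind and less RNA per cell cannot be told apart.

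Phf6 RNA was lower in deleted cells of all 3 populations, with a mean of 23.99 to 29.2% of the littermate's level left. Phf6 (Entrez 70998) lies on the plus strand of chromosome X at 52912214 to 52956961 (GRCm38). Control HSC held 183, 218, 240 and 222 CPM in litters 1 to 4, and deleted HSC held 36.8, 53.2, 53.9 and 79.8 CPM. In MPP the controls were at 196, 172, 234 and 184 CPM and the deleted libraries at 49.6, 68.7, 49.7 and 55.9 CPM. HPC-1 controls held 108, 142, 117 and 98.8 CPM against 32.8, 23.97, 32.1 and 20.96 CPM after deletion. The groups did not overlap in any population, and the highest deleted library, HSC of litter 4, still lay below the lowest HSC or MPP control.

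The Phf6 log2 difference was -1.95 ± 0.22 in HSC (SE, 95% interval -2.43 to -1.47, edgeR adjusted p = 0.0211), -1.82 ± 0.18 in MPP (-2.21 to -1.42, adjusted p = 0.00432) and -2.08 ± 0.16 in HPC-1 (-2.42 to -1.74, adjusted p = 3.29e-05). Among all genes tested, the share with an adjusted p under 0.05 was 0.0073% in HSC, where it is Phf6 alone, 0.029% in MPP and 0.0647% in HPC-1. With litter as a block 60 genes passed in HPC-1 rather than 9, Phf6 among them. The HSC call was not stable: with litter as a block the difference was -1.99 and the adjusted p 0.0606, and it also missed the threshold without any one control library (adjusted p = 0.0847 to 0.177) or without the deleted library of litter 2 (0.253) or 3 (0.122). When the 3 populations of a mouse were averaged first, Phf6 differed by -1.97 ± 0.11 (SE, limma adjusted p = 1.86e-06, 8 mice), where 0.101% of all genes passed.

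**Figure D1:**
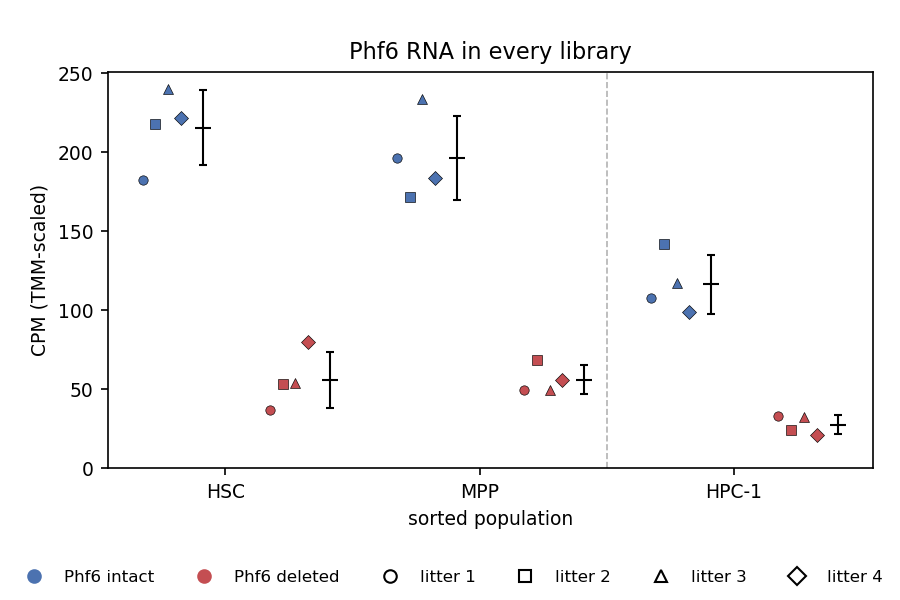
Phf6 level in CPM (linear axis from 0) in each of the 24 libraries, by sorted population. Blue points are libraries with Phf6 intact, red points those with Phf6 deleted, the point shape is the litter, and the bar is the mean ± SD of 4 libraries. The dashed line parts the 2 library kits. In each population the 4 red points lie under the 4 blue ones, and the HSC library of deleted litter 4 is the highest red point at 79.8 CPM.

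Set against the control littermate, the Phf6 RNA left was 20.2, 24.4, 22.5 and 36.0% in HSC of litters 1 to 4, a mean of 25.8% ± 7.0 (SD, n = 4). MPP kept 25.3, 40.0, 21.3 and 30.4%, a mean of 29.2% ± 8.1, and HPC-1 30.5, 16.9, 27.4 and 21.2%, a mean of 23.99% ± 6.1. These shares overlapped between the populations, and the litter with the most RNA left was a different one in each (4 for HSC, 2 for MPP and 1 for HPC-1). Counts are summed over the whole gene, so they do not tell a transcript without the floxed part from an intact one. The log2 effect on Phf6 differed by 0.14 (95% interval -0.41 to 0.70) between MPP and HSC, by -0.13 (-0.69 to 0.43) between HPC-1 and HSC and by -0.27 (-0.83 to 0.29) between HPC-1 and MPP, and none of these passed the edgeR threshold.

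None of the 9 partner genes passed the threshold after Phf6 deletion, in any population or in the average per mouse, and none had even an unadjusted p under 0.05. DESeq2 called none of them either. The unadjusted threshold was passed by 528 genes of 13693 in HSC, 1117 of 13806 in MPP, 694 of 13907 in HPC-1 and 1147 of 12843 in the average. The log2 differences of the partners ranged over -0.52 to 0.03 for HSC, over -0.37 to 0.15 for MPP and over -0.18 to 0.02 for HPC-1. Their 95% intervals reached down to -1.21 in HSC and in MPP, both for Mta1, and to -0.41 in HPC-1, for Hdac1. No partner's interval therefore reached the interval of Phf6 in the same population. The intervals were narrowest in HPC-1, where they leave room for a level between 75.4% and 115% of control.

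**Figure D2:**
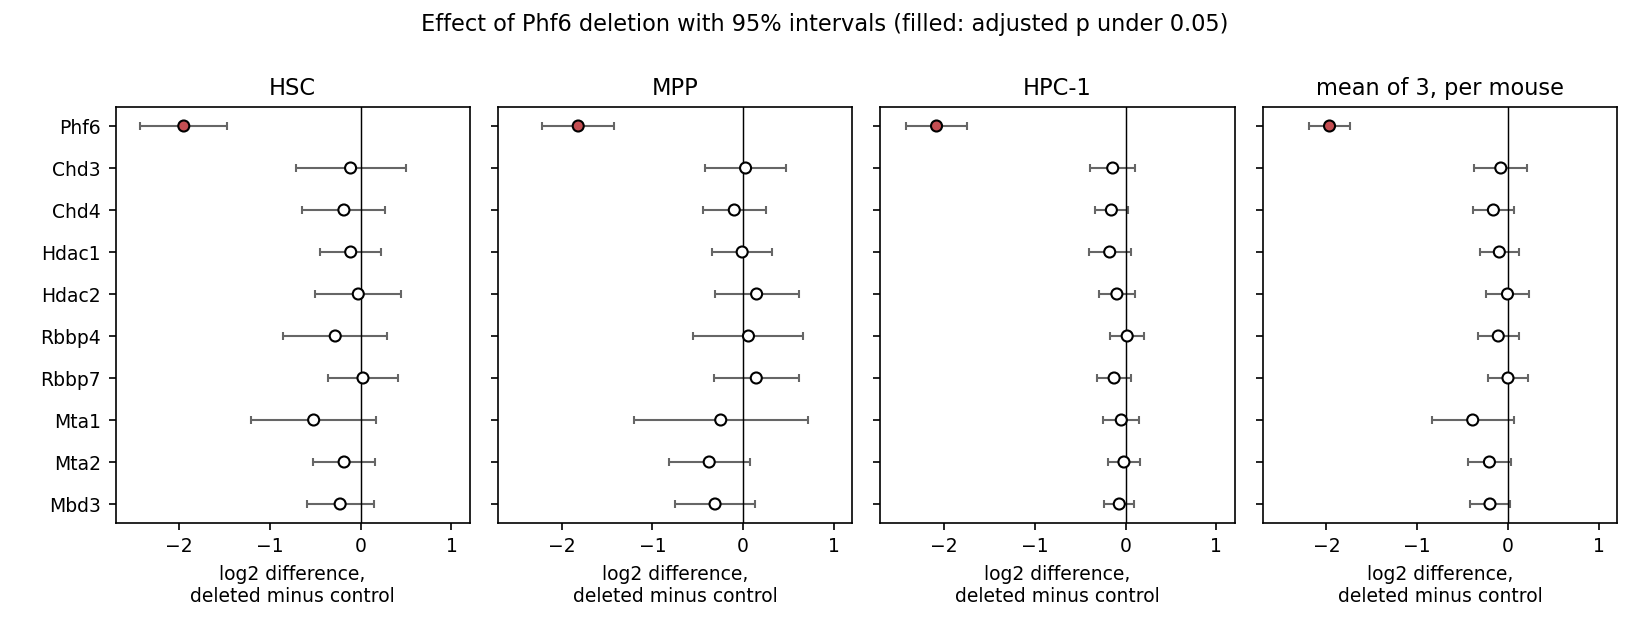
Log2 difference, deleted minus control, of each of the 10 genes in HSC, MPP and HPC-1 (edgeR, 4 against 4 libraries) and in the mean of the 3 populations per mouse (limma, 8 mice). Points are estimates and bars 95% intervals, and filled points have an adjusted p under 0.05. Only Phf6 is filled, near -2 in all 4 panels. The intervals of all partners cross 0 and are shortest in HPC-1.

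More partner estimates were below 0 than above it. The counts below 0 were 8 of 9 in HSC, with a median of -0.18 against 0.0063 over all genes tested, 5 of 9 in MPP (-0.010 against 0.019) and 8 of 9 in HPC-1 (-0.096 against -0.0037). In the average per mouse all 9 lay below 0, with a median of -0.11 against -0.02, although 2 of them, Rbbp7 and Hdac2, differed from 0 by less than 0.01. The smallest p-values in that average belonged to Mbd3 (-0.20 ± 0.10 SE, limma adjusted p = 0.602), Mta1 (-0.39 ± 0.21, adjusted p = 0.614) and Mta2 (-0.21 ± 0.11, adjusted p = 0.619). Against the littermate, a partner was lower in 4 of 4 litters for Mta1 in HSC and for Mta2 and Mbd3 in MPP. The same held for Chd4, Hdac1, Rbbp7 and Mbd3 in HPC-1. Rbbp7 in MPP was higher in 4 of 4, though in litter 4 only at 643.9 against 643.1 CPM. With 4 litters an exact sign-flip test cannot go below 0.125. The share of all genes lower or higher in 4 of 4 litters was not computed, so these litter counts have no background to be read against. The 9 genes share their libraries and are not independent of each other.

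The motor genes were Chd4 (Entrez 107932, chromosome 6, 125095980 to 125130591, plus strand), which encodes the main remodelling ATPase in most tissues, and its paralog Chd3 (Entrez 216848, chromosome 11, 69343273 to 69369499, minus strand). Chd4 held 108, 102, 94.9 and 111 CPM in control HSC and 65.1, 87.8, 133 and 80.6 CPM in deleted HSC, so the deleted libraries were spread around the controls, with litter 3 above all of them. In MPP it was at 93.5 to 120 CPM in controls and 91.8 to 107 CPM after deletion. In HPC-1 the controls held 934, 874, 908 and 977 CPM and the deleted libraries 911, 850, 840 and 712 CPM. The highest deleted HPC-1 library lay within the controls and 3 lay below them all. The log2 differences were -0.18 ± 0.21 for HSC, -0.10 ± 0.16 for MPP and -0.16 ± 0.09 for HPC-1 (SE, edgeR adjusted p = 0.839 to 0.999).

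Chd3 held 26.4, 25.5, 23.5 and 36.9 CPM in control HSC and 24.8, 21.1, 18.9 and 39.1 CPM in deleted HSC. In MPP it stood at 43.5, 54.1, 61.0 and 67.2 CPM in controls and 46.5, 57.2, 56.1 and 71.0 CPM in deleted mice. Litter 4 was the highest in all 4 of these groups. In HPC-1 the controls ran from 352 to 558 CPM and the deleted libraries from 387 to 414 CPM. The log2 differences after deletion were -0.11 ± 0.28, 0.03 ± 0.20 and -0.14 ± 0.12 in HSC, MPP and HPC-1 (SE, edgeR adjusted p = 0.968 to 0.999).

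The deacetylase genes were Hdac1 (Entrez 433759, chromosome 4, 129516104 to 129542646, minus strand) and Hdac2 (Entrez 15182, chromosome 10, 36974297 to 37001889, plus strand), which encode closely related enzymes that remove acetyl groups from histones. Hdac1 read counts need care, because 51.4% of the 80-base windows of its longest GENCODE transcript also occur in another annotated transcript, nearly all in the processed pseudogene Gm10093 (chromosome 17, 78491582 to 78493025, plus strand). Within the coding part the share is 71.9%, or 985 of 1370 windows. No named row of the count table carries the symbol Gm10093, 1886 rows stayed unnamed, and how the aligner placed such reads is not given in the sources used here. One stretch of 60 coding bases shows how close the copies are, with the single base that differs in capitals.
Hdac1: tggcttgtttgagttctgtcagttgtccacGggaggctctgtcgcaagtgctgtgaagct
Gm10093: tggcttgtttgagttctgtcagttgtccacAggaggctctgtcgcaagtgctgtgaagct
The stretches are bases 396 to 455 of the Hdac1 transcript and 312 to 371 of the Gm10093 transcript, both 5′ to 3′, from GENCODE M21. Reads over this base differ between the copies, while reads from the shared windows match both. Hdac2 shared no such window with any other gene.

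The Hdac1 groups overlapped in every population. Control HSC held 79.0, 98.9, 101 and 84.02 CPM and deleted HSC 82.4, 83.5, 86.7 and 83.5 CPM, inside the range of the controls. MPP stood at 70.3 to 76.0 CPM in controls and 66.7 to 76.2 CPM after deletion. HPC-1 controls held 69.3, 62.9, 78.9 and 72.3 CPM against 67.5, 62.3, 55.5 and 65.5 CPM. The log2 differences were -0.11 ± 0.15, -0.01 ± 0.15 and -0.18 ± 0.11 (SE, edgeR adjusted p = 0.983 to 0.999).

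Hdac2 held 303 to 508 CPM in control HSC and 287 to 557 CPM in deleted HSC, 368 to 486 and 329 to 615 CPM in control and deleted MPP, and 193 to 228 and 182 to 219 CPM in control and deleted HPC-1. Every pair of groups overlapped. The deleted MPP library of litter 3 was the highest of all at 615 CPM, and the log2 difference in MPP went from 0.15 ± 0.21 to -0.03 without it. In HSC and HPC-1 the differences were -0.03 ± 0.22 and -0.10 ± 0.09 (SE, edgeR adjusted p = 0.998 and 0.999).

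The histone chaperone genes were Rbbp4 (Entrez 19646, chromosome 4, 129307100 to 129335370, minus strand), whose protein is the NuRD subunit that PHF6 has been reported to contact, and the X-linked Rbbp7 (Entrez 245688, chromosome X, 162760372 to 162779090, plus strand). Rbbp4 held 225, 370, 349 and 250 CPM in control HSC and 365, 210, 150 and 255 CPM in deleted HSC. The deleted libraries ran both below and within the controls, with 1 near the top. MPP controls were at 255, 228, 311 and 209 CPM and deleted MPP at 220, 247, 419 and 160 CPM. In HPC-1 the groups were closer, at 425 to 498 CPM in controls and 447 to 521 CPM after deletion.

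The Rbbp4 log2 differences were -0.28 ± 0.26 for HSC, 0.06 ± 0.28 for MPP and 0.02 ± 0.09 for HPC-1 (SE, edgeR adjusted p = 0.950 to 0.999). Without the deleted MPP library of litter 3 the MPP value was -0.27. The HSC value was -0.53 without the deleted HSC library of litter 1 and -0.10 without that of litter 3. Its spread in HSC and MPP leaves its 95% interval in HSC between -0.85 and 0.29, while that in HPC-1 lies between -0.17 and 0.20. Of its transcript windows, 31.1% also occur in the opposite-strand noncoding RNA Gm26722 (chromosome 4, 129309081 to 129318443, plus strand) or in a Sync transcript, which the unstranded SMART-Seq reads cannot separate. Rbbp7 held 631 to 751 CPM in control HSC and 526 to 915 CPM in deleted HSC, 631 to 891 and 644 to 1097 CPM in MPP, and 376 to 455 and 359 to 405 CPM in HPC-1. Its log2 differences were 0.03 ± 0.17, 0.14 ± 0.21 and -0.13 ± 0.09 (SE, edgeR adjusted p = 0.824 to 0.999). The MPP value ran from -0.04 to 0.25 when 1 library was left out. Of the Rbbp7 windows, 8.64% were shared with Txlng or a pseudogene.

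The scaffold genes were Mta2 (Entrez 23942, chromosome 19, 8941920 to 8952300, plus strand) and Mta1 (Entrez 116870, chromosome 12, 113098248 to 113137206, plus strand). Mta2 was the only partner whose deleted and control libraries did not overlap anywhere, in MPP, where the controls held 249, 280, 272 and 263 CPM and the deleted libraries 238, 236, 130 and 220 CPM. All 4 deleted libraries lay below all 4 controls. Over all genes, 5.58% did not overlap in MPP, 3.11% in HSC and 3.66% in HPC-1. The log2 difference was -0.37 ± 0.20 (SE, 95% interval -0.82 to 0.07, edgeR adjusted p = 0.631), and without the library of litter 3 it was -0.20. In HSC Mta2 was at 224, 295, 270 and 271 CPM in controls and 271, 210, 201 and 251 CPM after deletion, and in HPC-1 at 344 to 409 and 361 to 404 CPM. Both overlapped, with log2 differences of -0.18 ± 0.16 and -0.02 ± 0.08.

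Mta1 had the widest 95% intervals of the partners in HSC and MPP. Control HSC held 18.7, 32.1, 26.5 and 31.6 CPM and deleted HSC 10.7, 20.6, 16.6 and 28.2 CPM. In each litter the deleted library was below its control littermate, but the groups overlapped. MPP controls were at 33.6, 33.9, 29.7 and 27.5 CPM, and deleted MPP at 31.0, 33.3, 5.27 and 35.6 CPM. The value of 5.27 CPM rests on 54 counts and comes from the library whose make-up stood apart. That library also held the highest summed level of T and NK cell genes of its group, 24.2 CPM against a group median of 5.26 CPM, with Cd3e, Cd8a and Ncr1 at 0. HPC-1 held 156 to 200 CPM in controls and 168 to 179 CPM after deletion.

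The Mta1 log2 differences were -0.52 ± 0.31 for HSC, -0.25 ± 0.44 for MPP and -0.05 ± 0.09 for HPC-1 (SE, edgeR adjusted p = 0.854 to 0.999). Without the deleted MPP library of litter 3 the MPP difference was 0.09. Mbd3 (Entrez 17192, chromosome 10, 80392539 to 80399531, minus strand), which encodes the subunit that joins the remodelling and deacetylase parts, held 260, 277, 230 and 305 CPM in control HSC and 207, 197, 301 and 212 CPM in deleted HSC. The deleted library of litter 3 lay among the controls and the other 3 below them. In MPP it was at 215, 250, 176 and 304 CPM in controls and 211, 203, 157 and 195 CPM after deletion, lower than the littermate in 4 of 4 litters with overlapping groups. HPC-1 held 143 to 150 CPM in controls and 135 to 148 CPM after deletion. The log2 differences were -0.23 ± 0.17, -0.31 ± 0.20 and -0.07 ± 0.08 (SE, edgeR adjusted p = 0.645 to 0.999).

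**Figure D3:**
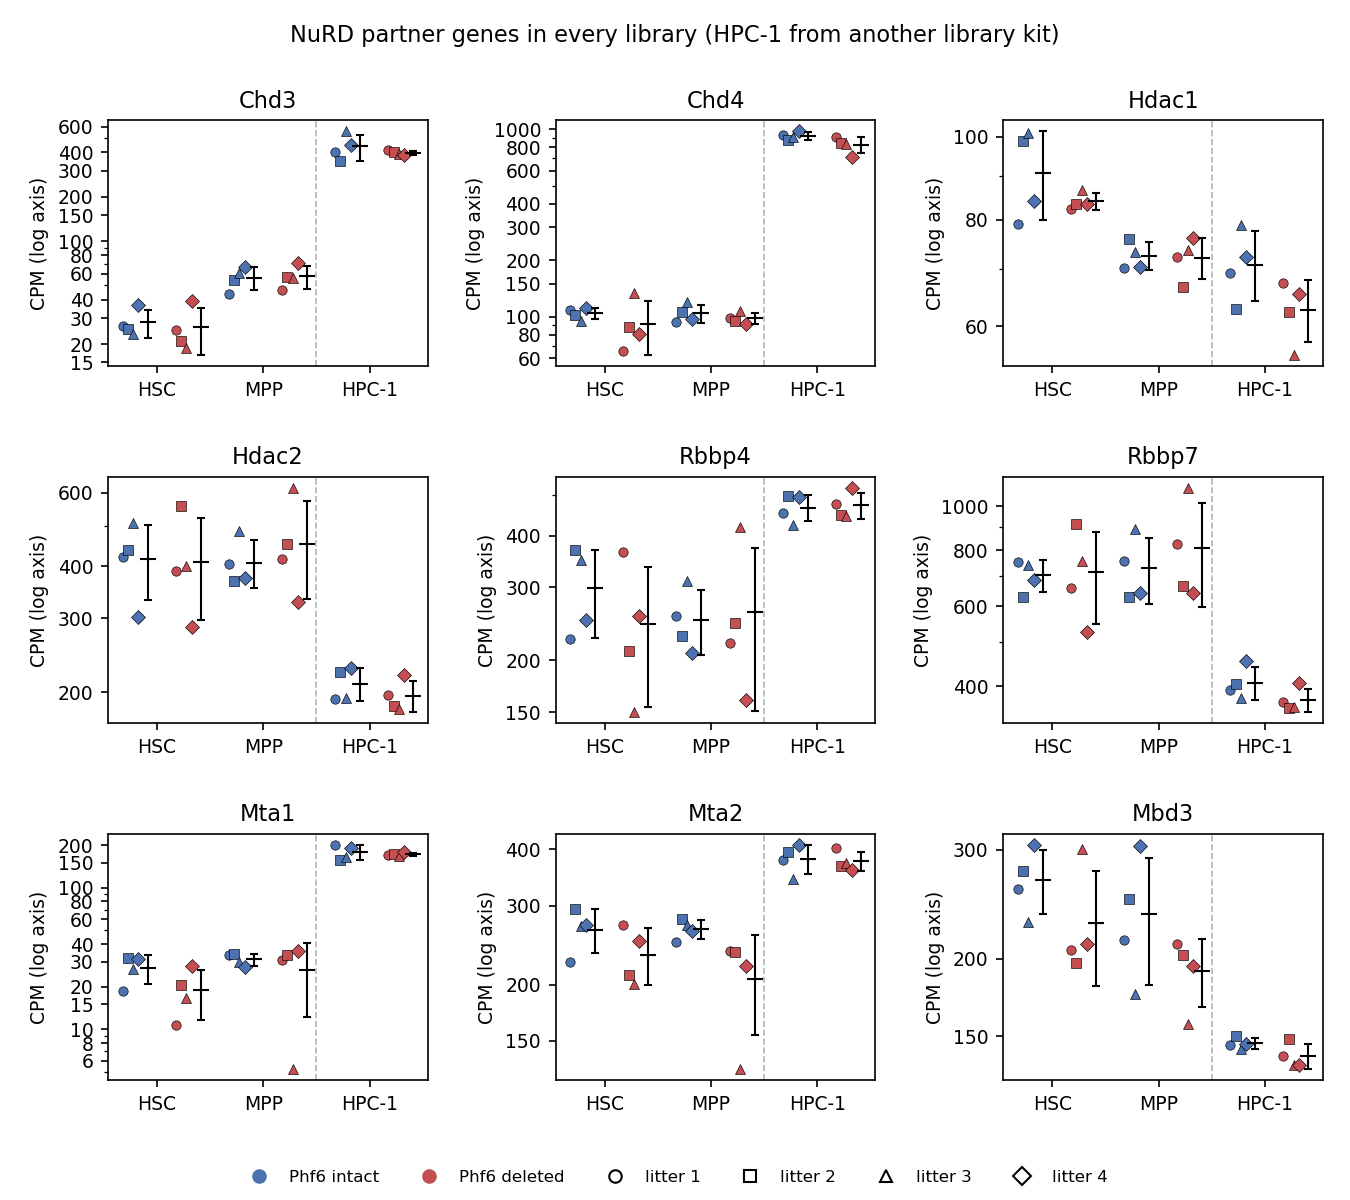
CPM (log axis, a different range in each panel) of the 9 partner genes in each library by population. Blue is Phf6 intact, red Phf6 deleted, the shape is the litter, and bars are mean ± SD of 4 libraries. The dashed line parts HPC-1, made with another kit. The isolated triangles of deleted MPP litter 3 are seen at 5.27 CPM for Mta1 and 130 CPM for Mta2, and Chd3 is higher in MPP than in HSC for both genotypes.

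Whether deletion acted differently in the 3 populations was tested directly over all 24 libraries, without a term for the mouse. No partner passed the threshold in any of the 3 tests of a difference between populations, and none had an unadjusted edgeR p under 0.05. Over all genes, 0% passed for MPP minus HSC, 0.00653% for HPC-1 minus HSC and 0% for HPC-1 minus MPP. DESeq2 called 10, 20 and 6 genes in these tests, none of them a partner, and 765, 551 and 549 genes had an unadjusted edgeR p under 0.05. The partners' differences ran from -0.28 to 0.48, and the widest 95% interval, that of Mta1 between MPP and HSC, ran from -0.68 to 1.25.

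Chd3 was the only one of the 10 genes that edgeR called between MPP and HSC of control mice, which share a library kit. Its level was 28.1 ± 6.0 CPM in control HSC and 56.5 ± 10.1 CPM in control MPP (SD, n = 4), a log2 difference of 1.00 ± 0.19 (SE, 95% interval 0.60 to 1.41, edgeR adjusted p = 0.00448). The groups did not overlap, and MPP was above HSC in 4 of 4 mice. In deleted mice the levels were 26.0 ± 9.1 and 57.7 ± 10.1 CPM, again without overlap and higher in 4 of 4 mice, with a log2 difference of 1.13 ± 0.28 (0.52 to 1.75). Its edgeR adjusted p was 0.0787 there. With the mouse as a block it was 0.0475, with DESeq2 0.00559 and without the deleted HSC library of litter 4 0.0345. The MPP to HSC difference of Chd3 was 0.15 larger in deleted than in control mice (95% interval -0.43 to 0.73), which edgeR did not call. Over all genes the threshold was passed by 8.84% in controls (1205 genes, or 2109 with the mouse as a block) and 1.41% in deleted mice, and 15.1% and 11.4% did not overlap.

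The other partners and Phf6 gave no call between MPP and HSC. Hdac1 had the next lowest p in controls, with 72.5 ± 2.7 CPM in MPP against 90.7 ± 10.8 CPM in HSC (SD, n = 4), a log2 difference of -0.33 ± 0.13 (SE, edgeR adjusted p = 0.144). Its MPP libraries lay below all HSC libraries in controls and also in deleted mice, where the difference was -0.24 ± 0.18 (adjusted p = 0.585). Phf6 differed by -0.14 (95% interval -0.42 to 0.14) in controls and -0.02 (-0.59 to 0.55) where it was deleted, and Chd4 by -0.01 (-0.27 to 0.25) and 0.07 (-0.46 to 0.60). The median of the 9 partners was -0.01 in controls and 0.08 in deleted mice, beside -0.01 and 0.02 over all genes.

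Other gene groups moved between control HSC and MPP alongside Chd3. Endothelial genes summed to 54.0 to 59.4 CPM in HSC and 77.01 to 108 CPM in MPP, with Cdh5 at 0 in both, and erythroid genes to 65.2 to 151 and 14.7 to 66.2 CPM. Among 12 S phase and mitosis genes, 11 fell in MPP, beside the 8.84% of all genes called. The list median was -0.69, led by Aurkb (-1.46) and Cdk1 (-1.26). In deleted mice all 12 estimates of this list were below 0, with a median of -1.26. There 1 of them was called, beside 1.41% of all genes. The part of these groups in the Chd3 difference was not tested.

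**Figure D4:**
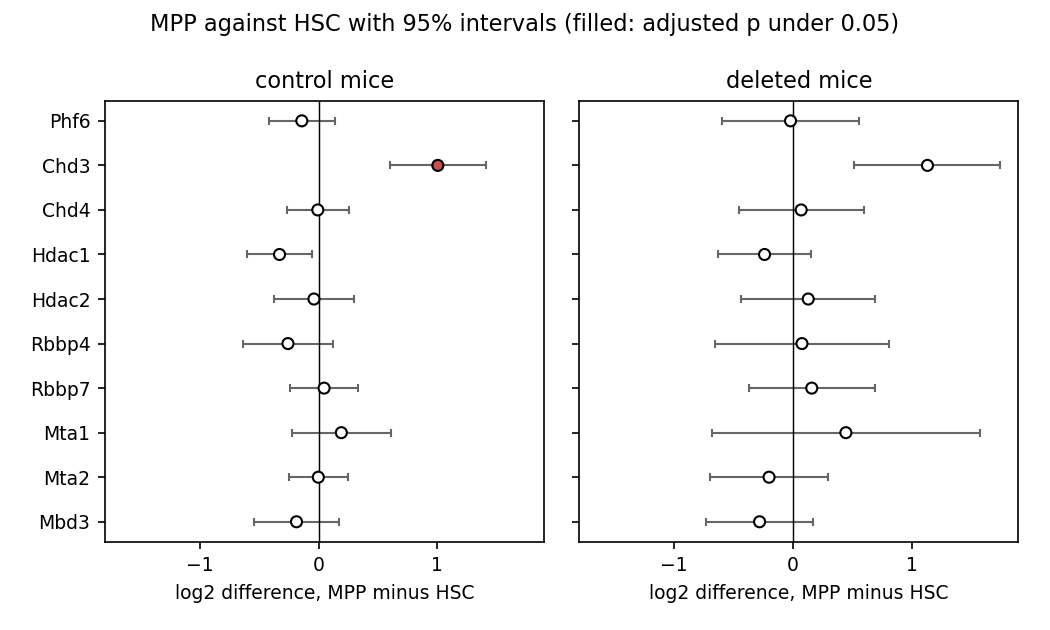
Log2 difference, MPP minus HSC, of the 10 genes in control mice and in Phf6-deleted mice (edgeR, 4 against 4 libraries each). Points are estimates, bars 95% intervals, and filled points have an adjusted p under 0.05. Chd3 lies near 1 in both panels, at 1.00 and 1.13, and is filled in controls only; the difference between the panels, 0.15, was not called.

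The balance between paralogs was read as the ratio of counts per kilobase within 1 library, which does not depend on library scaling. Of 24 ratio tests none passed an adjusted p of 0.05, but no ratio could have passed by itself. The smallest exact permutation p is 0.0286 for 4 against 4 mice, and the smallest sign-flip p 0.00781 for 8 mice. Adjustment over 24 tests lifts a lone value of either above 0.05. The lack of calls therefore does not show that the ratios are alike. The Chd4 to Chd3 ratio was 3.93, 3.84, 3.87 and 2.89 in control HSC and 2.06, 1.87, 1.89 and 1.39 in control MPP of litters 1 to 4. In deleted mice it was 2.51, 3.99, 6.77 and 1.98 in HSC and 2.01, 1.59, 1.82 and 1.24 in MPP. The ratio was lower in MPP in 8 of 8 mice, by -1.04 on the log2 scale, from a geometric mean of 3.503 to 1.71. The exact sign-flip p was 0.00781, the smallest that 8 mice can give, and 0.0625 after adjustment over the 24 tests.

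The Hdac1 to Hdac2 ratio (-0.34) and the Mbd3 to Mbd2 ratio (-0.28) were also lower in MPP in 8 of 8 mice, with the same exact p of 0.00781 and adjusted p of 0.0625. The first of these carries the uncertainty of the Hdac1 counts. After deletion the Rbbp4 to Rbbp7 ratio in HPC-1 was 0.667, 0.646, 0.642 and 0.663 in litters 1 to 4, against 0.597, 0.634, 0.582 and 0.560 in controls. These groups did not overlap, and the log2 difference was 0.14 (2-sided exact permutation p = 0.0286, the smallest for 4 against 4, adjusted p = 0.171). In HSC and MPP the same ratio differed by -0.32 and -0.14 with overlapping groups (exact permutation p = 0.486 and 0.429). The Gatad2a to Gatad2b ratio had the largest estimates after deletion, -0.55 in HSC and -0.81 in MPP, with an exact permutation p of 0.143 each. In HPC-1 its estimate was -0.004. Gatad2b held only 50 to 143 counts per library in HSC and MPP. The MPP estimate ran from -1.11 to -0.42 when 1 mouse was left out, and was -0.42 without deleted mouse 3, whose MPP log2 ratio was 1.37 against 2.44 to 3.44 in the other deleted MPP libraries.

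**Figure D5:**
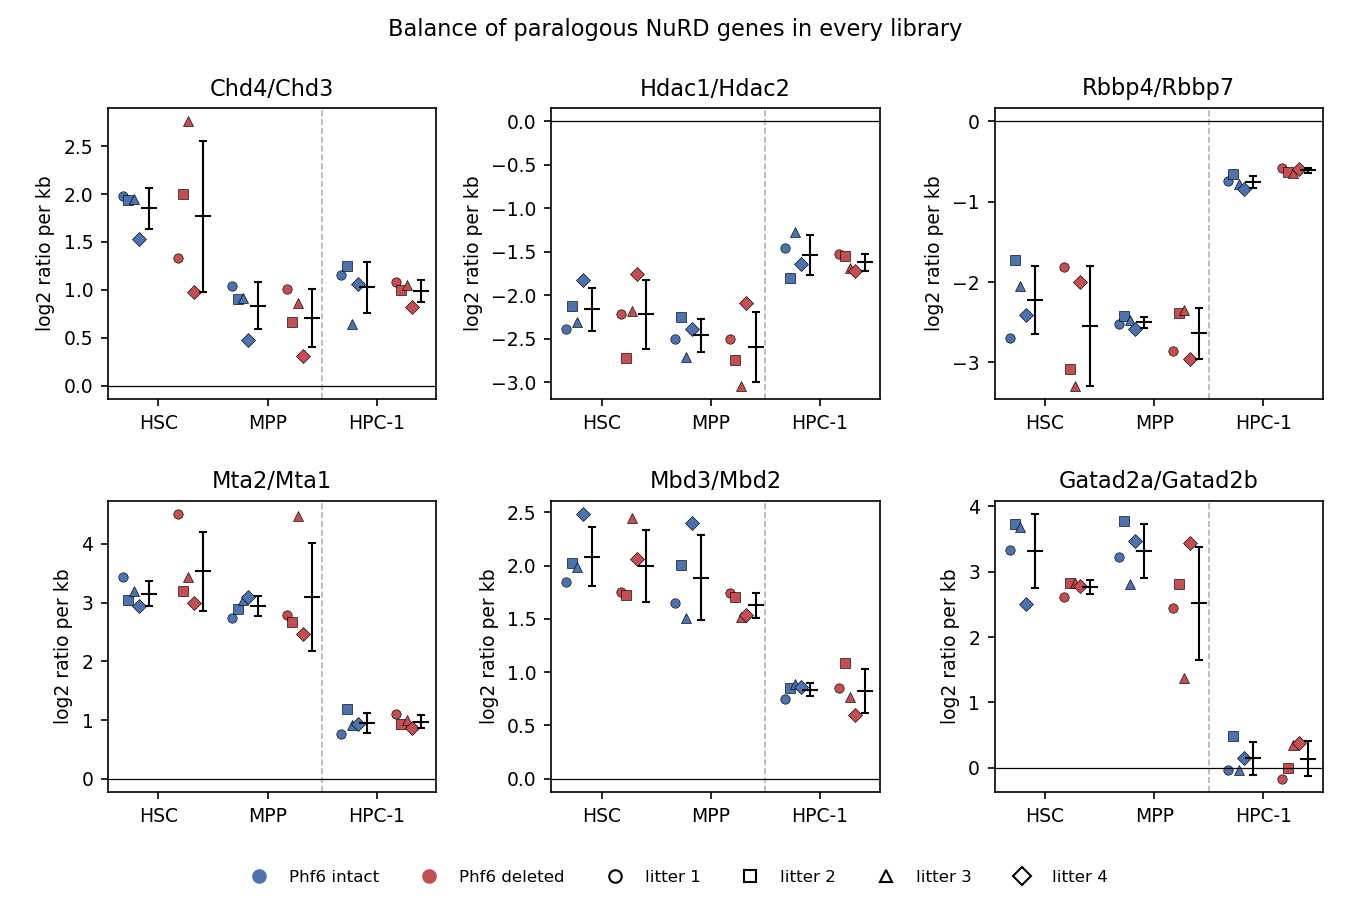
Log2 ratio of counts per kilobase of 2 paralogs in each library, for 6 pairs of NuRD genes. Blue is Phf6 intact, red Phf6 deleted, the shape is the litter, bars are mean ± SD of 4 libraries, and the dashed line parts the 2 kits. The Chd4 to Chd3 points of MPP lie lower than those of HSC in the same mice, and the 4 red Rbbp4 to Rbbp7 points of HPC-1, from -0.64 to -0.59, lie above the 4 blue ones, from -0.84 to -0.66.

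Levels per kilobase of counted gene length gave the order of the members within a population. In control HSC the order was Rbbp7 at 309 ± 25 CPM per kb (SD, n = 4), Hdac2 at 208 ± 42, Mbd3 at 169 ± 20, Mta2 at 85.9 ± 9.5, Rbbp4 at 67.7 ± 16.2, Phf6 at 49.5 ± 5.5, Hdac1 at 46.0 ± 5.5, Chd4 at 16.2 ± 1.1, Mta1 at 9.81 ± 2.23 and Chd3 at 4.55 ± 0.97. The libraries of neighbours overlapped between Hdac2 and Mbd3, Mta2 and Rbbp4, Rbbp4 and Phf6, and Phf6 and Hdac1, and did not overlap elsewhere. Control MPP had the same order, with Chd3 at 9.15 ± 1.64 now overlapping Mta1 at 11.2 ± 1.1. In deleted HSC and MPP Phf6 moved from the sixth place to below Chd4, at 12.9 ± 4.1 and 12.9 ± 2.1 CPM per kb, with libraries that overlapped those of Chd4 in both.

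In control HPC-1 the order was Rbbp7 at 179 ± 15 CPM per kb, Chd4 at 143 ± 7, Mta2 at 124 ± 9, Rbbp4 at 106 ± 8, Hdac2 at 105 ± 9, Mbd3 at 92.0 ± 2.0, Chd3 at 71.3 ± 14.2, Mta1 at 64.1 ± 7.7, Hdac1 at 35.9 ± 3.4 and Phf6 at 26.8 ± 4.3. Phf6 was the lowest member there, with its libraries overlapping those of Hdac1, and after deletion it stood at 6.31 ± 1.36 CPM per kb, below all others without overlap. Chd4, Chd3 and Mta1 held higher places in HPC-1 than in HSC or MPP. Since HPC-1 came from another kit, population and kit cannot be told apart in that order.

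Related genes were described from 8 lists. None of their members passed the threshold for deletion in any population or in the average per mouse, in edgeR and limma respectively. The other NuRD subunits had list medians of -0.19, -0.17 and 0.01 in HSC, MPP and HPC-1. Of their estimates, 4 of 5, 4 of 5 and 2 of 6 were below 0. Gatad2a, a scaffold that links the MBD proteins to the motor, had the lowest p of this list in HSC and MPP. It held 129.9 to 184 CPM in control HSC against 89.1 to 145 CPM in deleted HSC (log2 difference -0.30, edgeR adjusted p = 0.998), and 95.8 to 162 against 44.4 to 118 CPM in MPP (-0.57, edgeR adjusted p = 0.620). Chd5, the third motor paralog, did not exceed 1.51 CPM in any library. The SIN3 complex, which shares both deacetylases and both chaperones with NuRD, had 11 of 11 genes tested and list medians of -0.01, 0.07 and -0.02 in HSC, MPP and HPC-1, respectively. Its lowest p-values came from Arid4a, a SIN3 subunit, at 0.40 in HSC (edgeR adjusted p = 0.998) and 0.61 in MPP (edgeR adjusted p = 0.597).

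The CoREST and MiDAC list, other users of HDAC1 and HDAC2, had medians of -0.05, -0.09 and 0.03, and Rcor1, the CoREST scaffold, differed by -0.54 in MPP (edgeR adjusted p = 0.592). PRC2 and CAF-1, which also hold RBBP4 and RBBP7, had medians of 0.04, -0.04 and 0.06. Chaf1a, a subunit of the replication-linked CAF-1 chaperone, differed by -0.89 in MPP (edgeR adjusted p = 0.551). The other histone deacetylases, Hdac3 to Hdac11, had medians of -0.12, -0.06 and -0.09. The S phase and mitosis genes had medians of -0.10, -0.40 and -0.02, with 11 of 12 estimates below 0 in MPP, where Mcm3 was at -0.68 (edgeR adjusted p = 0.554). The MPP values of these lists include the deleted library of litter 3, whose make-up stood apart. It held the lowest level of its group for Mcm3 (153.9 CPM), Mcm2 (68.2 CPM), Chaf1a (25.2 CPM) and Gatad2a (44.4 CPM) and the highest for Ikzf2 (266.9 CPM), and its part in these differences was not tested. Of 24 genes in the table within 500 kb of Phf6, 5 were tested in each population and none passed. All 5 estimates were above 0 in MPP, from 0.13 to 0.94, with a median of 0.386 against 0.019 over all genes. These MPP values also include the deleted library of litter 3. The HPC-1 median was -0.07, with estimates from -0.996 to 0.34 and 3 of 5 below 0. For HSC the median was 0.06, with 2 of 5 below 0.

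Factors that bring NuRD to DNA in blood cells had medians of -0.25, -0.10 and -0.18 after deletion, with 7 of 9, 5 of 9 and 10 of 11 estimates below 0. Zfpm1, which encodes FOG1, the GATA1 cofactor that binds NuRD, differed by -0.60 in HSC (edgeR adjusted p = 0.998) and by -0.55 ± 0.11 in the average per mouse (SE, limma adjusted p = 0.124). Ikzf2, a relative of Ikaros, was at 1.03 in MPP (edgeR adjusted p = 0.551). Between MPP and HSC of control mice 3 of 9 fell and 1 rose: Gata1 (-3.41), Gata2 (-0.93) and Zfpm1 (-0.84) were lower in MPP and Ikzf1, which encodes Ikaros, was higher (0.70). In deleted mice Gata1 (-3.16) and Gata2 (-0.95) fell, and Ikzf1 (1.36) and Ikzf2 (1.58) rose, all with an edgeR adjusted p of at most 0.0352. These counts stand beside the 8.84% of all genes called in controls and 1.41% in deleted mice. Of the other lists, Chaf1a (-0.79) and Ezh2 (-0.49), the PRC2 enzyme, also fell in control MPP, and Chaf1a (-1.45) and Aurkb (-1.76) in deleted MPP, while no gene of the SIN3, CoREST and MiDAC, other deacetylase or other NuRD lists passed.

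The genes with a pattern most like Phf6 were ranked by Pearson r of log2 CPM over the 24 libraries, each population centred on its mean, among 13390 genes. The measure mixes genotype, litter and library make-up, and the libraries are shared, so it is a description. The highest were Nefh (0.86), Ndrg1 (0.85), Rcn3 (0.82), Sdsl (0.81) and Cep170b (0.80), and the lowest Iigp1 (-0.91), Cmpk2, Pbx3 and H2-T22 (each -0.86) and Slc6a15 (-0.86). The partners lay between -0.05 and 0.45, with Mta2 (0.45), Chd4 (0.44), Mbd3 (0.42) and Hdac1 (0.41) highest and Rbbp7 lowest. Among the genes most like the mean profile of the 9 partners were Cep170b (0.86), Ints3 (0.85), Smo (0.84) and Tgfb1 (0.81).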

How the data were processed

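Poly(A) RNA from HSC, MPP and HPC-1 of 8 mice was sequenced as 80-base paired reads on a NextSeq 500, per the labels. The authors deposited whole-number counts per Entrez gene, and the submitters' processing notes name bcl2fastq, featureCounts and mm10. The aligner, annotation, versions and strand setting were not given in the sources used here. The 24 files of the samples were identical to the deposited count table of the series. Of its 27179 genes, 25275 were named from RefSeq (GRCm38.p6) and 18 from GENCODE M21, and 1886 stayed unnamed and were tested too.

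Totals ran from 9658167 to 27786830 counts per library. No libraries of a group agreed within sampling noise (chi-square per degree of freedom 16.7 to 248). Each mouse gave 1 library per population, so p-values of the deletion effects measure the spread between mice. The tests of differing effects fitted all 24 libraries with 1 shared spread and no mouse term. They therefore count the 3 libraries of a mouse as independent. MPP against HSC was also tested without the pairing by mouse, and a mouse block was an alternative for both.

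Tests used edgeR 4.0.16 in R 4.3.3 (TMM, a filter at a count of 10 and 15 in total, robust quasi-likelihood) and p-values were adjusted by Benjamini-Hochberg over every gene tested, with calls at 0.05. The average per mouse used limma 3.58.1 on log2 CPM (prior count 2). CPM used TMM over the SMART-Seq and the TruSeq libraries separately, and lengths for values per kilobase are the deposited ones. Ratios of paralogs were tested by 2-sided exact permutation or sign-flip. The scripts were tested on simulated data. Shared windows were found by matching every 80-base window of a member's longest transcript to all GENCODE M21 transcripts. Coordinates are RefSeq's for members and GENCODE's for other genes, both on GRCm38.

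All members are named, and up to 4 genes of a list past the threshold, or the 2 with the lowest p where none passed, with not every such gene printed. The members, the lists, the tests and these rules were chosen with earlier results of these data known. Alternatives were RLE size factors, no filter, DESeq2 1.42.0, a litter or mouse block, and leaving out each library or mouse. Leaving out the deleted MPP library of litter 3 alone in the tests of differing effects was added after seeing the data.

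The numbers pair the samples by the labels, which give a litter for each deleted and control mouse and the same mouse for the 3 populations. Deviations from the group means were correlated across genes, for libraries that share a label (matched) and for those that do not (mismatched). Control mice, HSC with MPP, gave 0.16 to 0.35 matched against -0.17 to 0.03 mismatched. Deleted mice gave 0.02 to 0.39 against -0.33 to 0.12. By litter, HPC-1 gave 0.08 to 0.38 against -0.21 to 0.12. MPP gave 0 to 0.15 against -0.19 to 0.14. HSC gave 0.01 to 0.06 against -0.1 to 0.06. Only in control mice were the ranges apart, so elsewhere these values do not settle the pairing.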

Additional observations from a re-analysis of the deposited data

Results flagged for a closer look

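Among 96 groups of 4 libraries examined for a single value far from the rest, where chance gives about 1 in 20, 5 held one. In deleted MPP of litter 3, Mta1 was at 5.27 CPM against 31.0 to 35.6 CPM in the other 3 libraries, and Mta2 at 130 CPM (129.9) against 219.6 to 238 CPM. The log2 ratio of Mta2 to Mta1 in that library was 4.47 (4.469) against 2.47 to 2.79. Mbd3 in deleted HSC of litter 3 was at 300.5 CPM against 197 to 212 CPM. The log2 ratio of Chd4 to Chd3 in control HSC of litter 4 was 1.53 (1.532) against 1.94 to 1.98, with Chd3 at 36.9 CPM, the highest of its group.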

How the results depend on the processing

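Over 441 alternative values of the 9 partners' deletion effects none passed the threshold, and 37 had the other sign. For all comparisons there were 999 such values, of which 15 passed: 12 for Chd3 between MPP and HSC of controls, which held in all of them, and 3 in deleted mice. These 3 were 1.15 with DESeq2, 1.17 with the mouse as replicate block and 1.40 without the deleted HSC library of litter 4, each giving 1 partner past the threshold where the main value was 0 (leaving out 1 library gave 0 to 1).

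The litter block took the HSC difference of Phf6 to -1.99, no longer called, and its count of genes from 1 to 0. It moved the HPC-1 count from 9 to 60. The mouse block moved the MPP and HSC control count from 1205 to 2109 and that for HPC-1 minus HSC from 1 to 0. Apart from Phf6 in HSC, and Chd3 between MPP and HSC of deleted mice as given above, blocks changed no call of a member. Leaving out 1 library gave -2.17 to -1.78 for Phf6 in HSC. Over all genes it gave 0 to 1 in HSC, 2 to 22 in MPP, 1 to 11 in HPC-1 and 54 to 208 for MPP against HSC in deleted mice. The MPP count was 22 without deleted 3 and 2 without deleted 1 or 2 or control 1, 3 or 4. The HPC-1 count was lowest, 1, without deleted 1 or control 4. Leaving out 1 mouse gave 4 to 26 in the average per mouse (26 without deleted mouse 3, 4 without control mouse 4) and 0 for HPC-1 minus HSC.

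DESeq2 called 14 genes in HSC, 95 in MPP, 68 in HPC-1, 846 for MPP against HSC in deleted mice, and 10, 20 and 6 in the 3 tests of differing effects. Without a filter the HPC-1 count was 20, and that for HPC-1 minus HSC was 0, as with RLE size factors. Testing the average in edgeR over 24 libraries gave 121 genes, a change of both the tool and the unit of replication. The lowest count of a member was 54, for Mta1 in deleted MPP of litter 3. The cause of these shifts was not tested.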
